A study of Glycine max with 6 samples.

Results

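Runs of neighbouring soybean genes that differed in the same direction between drought and well-watered leaves were collected from an array study of the cultivar Williams 82. A run was taken as 3 or more consecutive genes on a chromosome whose drought mean minus well-watered mean lay from 1 to 3, or from -3 to -1, on the log2 scale, with no overlap between the values of the 3 drought and the 3 well-watered leaves for any gene. The rule found 65 runs with 207 genes, out of 65756 genes that could be placed in order on the 20 chromosomes and 66184 probe sets in all. Of these runs, 44 with 139 genes were higher in drought and 21 with 68 genes were lower. The members were chosen by the drought difference itself and by the spread of the same 6 values, so their differences are given below as a description and no test is made of them.

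The drought group held leaves of plants 11, 12 and 13, which went unwatered for 5 days after flowering began (stage R1), when the soil was down to 5% moisture. The well-watered group held leaves of plants 1, 3 and 4, which received water as before. All 6 plants carried the same cultivar background and had reached stage R2 when an upper trifoliate leaf was taken, and 1 array was hybridised with the RNA of each leaf. The labels call the plants biological repeats and describe the drought pot and the control pot in the singular, with 3 plants to a pot, so an effect shared within a pot and an effect of water cannot be told apart. With 3 arrays in a group, precision is low.

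The genome of soybean went through whole-genome duplications, and many plant gene families also grow by tandem duplication, which leaves similar genes side by side. Neighbours can also share open or closed chromatin, or lie head to head on a common promoter region. An identifier such as Glyma18g48930 gives the chromosome (18) and a number that grows along it, usually in steps of 10, so the identifiers themselves hold the gene order. No identifier matched the current RefSeq names of soybean genes. A function is therefore given only where the descriptions used here, by the most similar Arabidopsis gene, held the member. These covered 1851 of the 3138 genes of chromosome 1 and, on other chromosomes, short lists of hormone-related and NAC genes. They held 1 member of the higher runs and 4 members of the lower runs, and most members on the other chromosomes were not looked up.

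Values are log2 expression levels centred, for each probe set, on its median across the 6 leaves, so a value shows how a leaf compared with the other leaves and not how strongly a gene was expressed. As a consequence, the lowest value of the higher group and the highest value of the lower group mirror each other around 0 wherever the groups do not overlap. Group differences and deviations from a group mean are not altered by this centring. Leaf markers could not be checked, since the absolute level is not kept. The median of an array over all probe sets lay between -0.11 and 0.13, and arrays of 1 group correlated at 0.43 to 0.64. In whole leaves, fewer cells of a type and less RNA per cell cannot be told apart.

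Most runs were as short as the rule allowed. Among the runs higher in drought 39 had 3 genes, 3 had 4 genes and 2 had 5 genes, and among the lower runs 17 had 3 genes, 3 had 4 genes and 1 had 5 genes. Taken singly, 4.63% of the ordered genes met the rule in the higher direction (3042 genes) and 4.51% in the lower direction (2966 genes), whereas 0.211% and 0.103% of the ordered genes lay in a higher and a lower run. Thus 4.57% of the single genes that were higher, and 2.29% of those that were lower, had at least 2 further neighbours in a row with them. With limma (adjusted p under 0.05 and at least 2-fold), 138 of the 139 higher members and all 68 lower members were called, beside 4.98% of all probe sets called higher and 4.63% called lower. Groups without overlap in either direction were found for 36.0% of all probe sets, and for all members by the rule. The rule used the same contrast, so nothing is read from these counts. The member that was not called was Glyma03g02830, with 0.07, 0.01 and 0.43 in drought plants 11, 12 and 13 and -1.63, -0.91 and -0.01 in well-watered plants 1, 3 and 4.

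The runs were spread over the genome. Higher runs lay on 17 chromosomes, with 5 each on chromosomes 8 and 18 and none on 5, 9 and 15. Lower runs also lay on 17 chromosomes, with 2 each on chromosomes 6, 7, 19 and 20 and none on 9, 12 and 16. Chromosome 9, with 3362 ordered genes, was thus the 1 chromosome without any run. A chromosome held from 2611 (chromosome 16) to 4092 (chromosome 8) ordered genes, and chromosome 18 held 3827. Runs were not set against these sizes, so no chromosome is called rich or poor in them. In 41 of the 44 higher runs and 19 of the 21 lower runs the identifiers followed each other in steps of 10, and the largest step was 20 in a higher run and 30 in a lower run. Steps of 10 are usual in this numbering, and their share over all neighbouring genes is not given here, so nothing is read from these counts.

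Differences of the higher members ran from 1.01 to 2.89 with a median of 1.75, and those of the lower members from -2.92 to -1.03 with a median of -1.52, while the median over all ordered genes was 0.02. The median of the higher members was 0.80, 0.79 and 1.08 in drought plants 11, 12 and 13, against -0.91, -0.80 and -0.77 in well-watered plants 1, 3 and 4. For the lower members these medians were -0.70, -0.66 and -0.97 in the drought plants, against 0.82, 0.74 and 0.69 in the well-watered plants. Drought plant 13 thus lay farthest from the well-watered leaves in both directions. The space left between the groups had a median of 1.27 in higher members and 1.01 in lower members, and the narrowest gaps were 0.02 in each direction.

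At the bounds of the rule, Glyma08g45300 was the higher member closest to the lower bound (1.01), and the first gene left outside was Glyma13g09720 (0.99), next to a higher run on chromosome 13. Glyma11g10090, at 3.13, adjoined the run of Glyma11g10060 to Glyma11g10080 and was left out only because it passed the upper bound. Among the lower runs, Glyma19g29820 (-1.03) and Glyma07g10160 (-2.92) were the members closest to the bounds, and Glyma07g34740 (-0.98) was the gene just outside.

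The run with the largest differences among those of 5 genes lay on chromosome 18, from Glyma18g48930 to Glyma18g48970. Glyma18g48930 was at 1.14, 0.77 and 1.93 in drought plants 11, 12 and 13, against -1.27, -1.15 and -0.77 in well-watered plants 1, 3 and 4. Glyma18g48940 had 1.43, 1.17 and 1.39 in the drought plants and -1.89, -1.41 and -1.17 in the well-watered plants. Both genes were high in every drought leaf, with no overlap, as the rule requires, and the lowest leaf was that of well-watered plant 1. The next gene, Glyma18g48950, measured 1.01, 0.76 and 1.51 under drought and -1.99, -0.90 and -0.76 with water. For Glyma18g48960 the drought values were 1.01, 0.69 and 1.29 and the well-watered values -2.40, -0.69 and -0.79. Glyma18g48970, the last of the run, stood at 0.96, 1.09 and 1.32 in drought leaves and at -2.55, -0.96 and -1.12 in well-watered leaves. Well-watered plant 1 was again the lowest leaf in each of these genes, by more than 1 log2 unit. The differences from the first to the last gene were 2.34 ± 0.28, 2.81 ± 0.21, 2.31 ± 0.32, 2.29 ± 0.40 and 2.67 ± 0.36 (SE of the limma fit, n = 3 each). The genes beside it did not continue the pattern, with 0.18 in Glyma18g48920 and -0.16 in Glyma18g48980. The run met the rule whichever leaf was left out, whereas Glyma18g48950, Glyma18g48960 and Glyma18g48970 missed the threshold of the methods' t-test (run gene by gene, with Benjamini-Hochberg adjustment and at least 2-fold).

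The other higher run of 5 genes, Glyma11g14840 to Glyma11g14880, had its largest differences in the first 2 genes. Glyma11g14840 measured 0.69, 1.23 and 1.09 in drought plants 11, 12 and 13 and -0.69, -0.69 and -0.99 in well-watered plants 1, 3 and 4. Its neighbour Glyma11g14850 had the largest difference of the run, from 1.08, 1.02 and 1.28 under drought and -1.07, -1.33 and -1.02 with water. The middle gene, Glyma11g14860, showed 0.96, 0.71 and 0.57 in drought leaves and -0.79, -0.80 and -0.57 in well-watered leaves. Groups stayed apart in all of them, as the rule requires, with no leaf far from its group. Glyma11g14870 was at 0.55, 0.49 and 0.44 under drought, against -0.44, -1.14 and -0.77 in the well-watered plants. In Glyma11g14880 the drought values of 0.20, 0.39 and 0.69 came close to the well-watered values of -1.48, -0.20 and -0.60, which were set apart by well-watered plant 1. The differences were 1.79 ± 0.19, 2.27 ± 0.17, 1.47 ± 0.17, 1.28 ± 0.20 and 1.19 ± 0.30 along the run (SE, n = 3 each). Without well-watered plant 1 the last gene differed by 0.83 and the run of 5 was no longer met. The flanking genes Glyma11g14830 and Glyma11g14890 were at -0.34 and 0.47.

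The lower run of 5 genes, Glyma03g37060 to Glyma03g37110 on chromosome 3, had smaller differences and skipped the number of Glyma03g37090, which was not among the measured genes. Glyma03g37060 was at -0.49, -0.55 and -0.95 in drought plants 11, 12 and 13, against 0.49, 0.68 and 0.81 in well-watered plants 1, 3 and 4. Glyma03g37070 had -0.36, -1.13 and -1.20 under drought and 1.06, 0.39 and 0.36 with water. Drought plant 11 was thus the closest to the well-watered leaves in both genes. Glyma03g37080 gave -0.45, -0.83 and -0.66 in drought leaves and 0.47, 0.51 and 0.45 in well-watered leaves. For Glyma03g37100 the values were -0.27, -0.59 and -1.07 under drought and 0.27, 0.67 and 0.42 with water. Glyma03g37110 ended the run at -0.57, -0.90 and -0.24 in the drought plants and 1.202, 0.24 and 0.79 in the well-watered plants, so here drought plant 13 was closest. The differences were -1.33 ± 0.19, -1.50 ± 0.27, -1.12 ± 0.17, -1.10 ± 0.22 and -1.32 ± 0.26 (SE, n = 3 each). Without drought plant 13 and without well-watered plant 3, Glyma03g37100 differed by -0.88 and -0.99 and the run of 5 was lost.

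**Figure D1:**
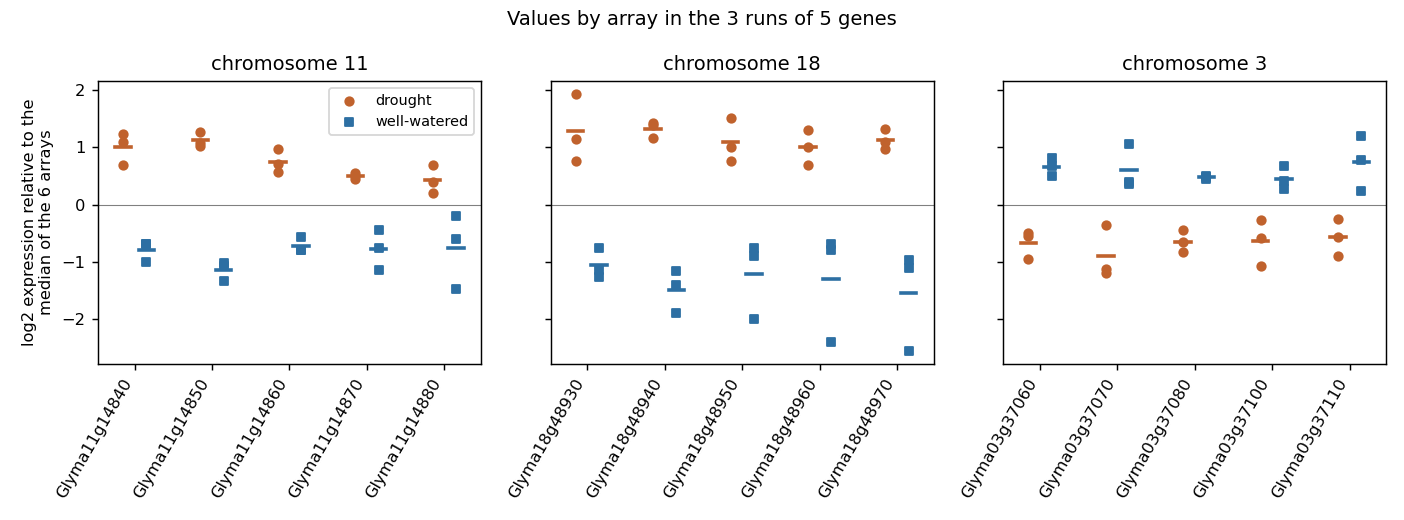
Values of each array in the 3 runs of 5 genes, as log2 expression relative to the median of the 6 arrays, for drought (circles) and well-watered (squares) leaves, with horizontal bars at the group means. The groups are apart in all genes, as the rule requires, and the lowest squares of chromosome 18 (down to -2.55) belong to well-watered plant 1.

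In 3 runs at least 1 gene was among the descriptions used here, which are mostly of chromosome 1. Glyma01g33070, most similar to the Arabidopsis homogentisate phytyltransferase VTE2 (AT2G18950), which catalyses the committed step of tocopherol (vitamin E) synthesis, opened a higher run on chromosome 1. It stood at 1.61, 0.998 and 2.45 in drought plants 11, 12 and 13, against -1.39, -1.22 and -0.998 in well-watered plants 1, 3 and 4, a difference of 2.89 ± 0.31 (SE, n = 3 each). This was the largest difference of any higher member, and drought plant 13 was highest. The undescribed neighbours followed, with Glyma01g33080 at 0.75, 0.64 and 1.26 under drought and -0.64, -1.67 and -0.98 with water, and Glyma01g33090 at 0.77, 0.49 and 0.90 under drought and -0.49, -0.64 and -0.63 with water. Their differences were 1.98 ± 0.27 and 1.30 ± 0.17 (SE, n = 3 each), and the flanking genes were at 0.31 and 0.33. Without drought plant 12 the difference of Glyma01g33070 became 3.24, above the upper bound, so the run was no longer met although the gene was farther apart.

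All 3 genes of the lower run Glyma01g01350 to Glyma01g01370 were described. Glyma01g01350, similar to a member of the 4-coumarate-CoA ligase family (AT4G19010), relatives of an enzyme of phenylpropanoid metabolism, had -0.53, -0.88 and -1.05 in drought plants 11, 12 and 13 and 0.53, 0.76 and 0.66 in well-watered plants 1, 3 and 4. Glyma01g01360, similar to an Arabidopsis protein related to the early-responsive to dehydration (ERD) group (AT1G32090), had -1.07, -1.14 and -1.07 under drought and 1.53, 1.07 and 1.45 with water. Glyma01g01370, similar to phosphoribulokinase (AT1G32060), which regenerates the carbon dioxide acceptor of the Calvin cycle, had -0.64, -0.62 and -0.87 under drought and 0.62, 0.88 and 0.77 with water. The leaves of a group lay close together in all 3 genes, and the groups were apart, as the rule requires. The differences were -1.47 ± 0.18, -2.44 ± 0.18 and -1.47 ± 0.17 (SE, n = 3 each), and the run was met whichever leaf was left out. The genes on either side differed the other way, by 0.61 in Glyma01g01340 (similar to AT1G32080, a putative membrane protein) and by 0.71 in Glyma01g01380 (similar to AT1G32050, of the secretory carrier membrane protein family). Counting these flanks, 4 of the 5 most similar Arabidopsis genes lay in the short stretch from AT1G32050 to AT1G32090, and of these 4 the 2 members were lower in drought and the 2 flanking genes higher.

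The remaining described run, Glyma20g28290 to Glyma20g28320, was lower in drought and began with a gene similar to the Arabidopsis lipoxygenase LOX5 (AT3G22400), of the enzymes that oxygenate polyunsaturated fatty acids. Glyma20g28290 had -0.73, -0.70 and -1.82 in drought plants 11, 12 and 13, against 0.70, 1.16 and 1.31 in well-watered plants 1, 3 and 4, a difference of -2.14 ± 0.30 (SE, n = 3 each). Drought plant 13 was the lowest leaf. Glyma20g28300 gave -0.73, -0.46 and -0.50 under drought and 0.62, 0.50 and 0.46 with water, and Glyma20g28310 gave -0.14, -0.63 and -0.25 under drought and 1.12, 0.14 and 1.19 with water. In Glyma20g28310 drought plant 11 and well-watered plant 3 nearly met. Glyma20g28320 closed the run at -1.08, -0.63 and -1.14 under drought and 0.97, 0.63 and 1.07 with water. The differences of these 3 genes were -1.09 ± 0.16, -1.16 ± 0.28 and -1.84 ± 0.20 (SE, n = 3 each). Without well-watered plant 4, Glyma20g28310 differed by -0.98 and the run was lost. The gene before the run, Glyma20g28280, differed the other way by 2.46, with 1.39, 0.84 and 1.59 in the drought plants and -1.31, -0.84 and -1.42 in the well-watered plants.

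**Figure D2:**
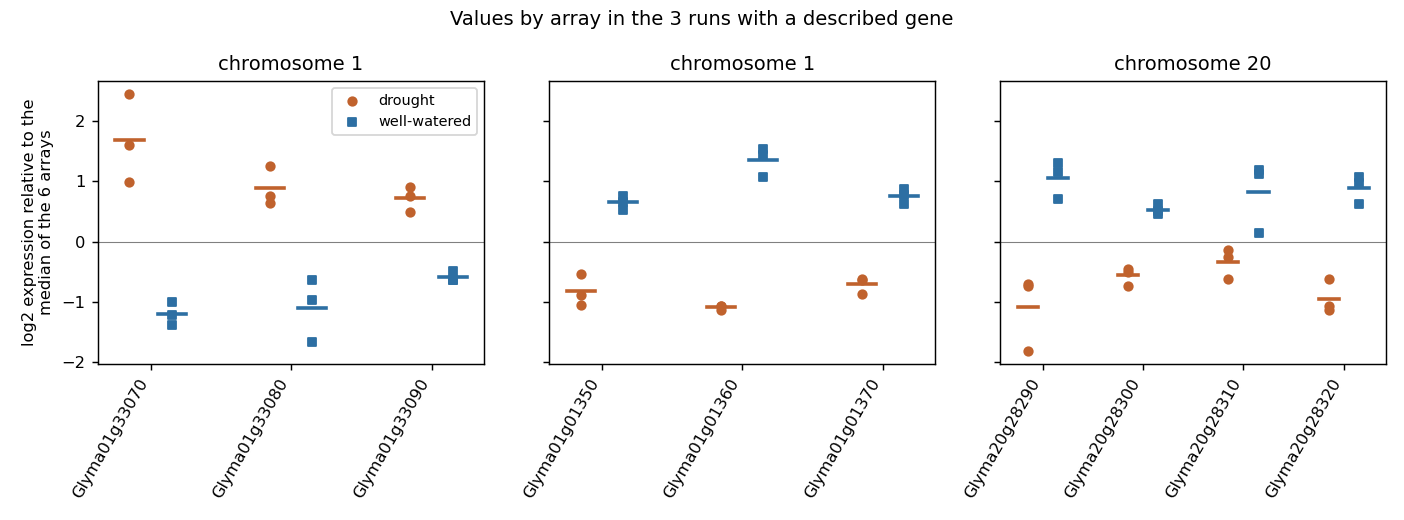
Values of each array in the 3 runs that hold a gene among the descriptions used here, as log2 expression relative to the median of the 6 arrays, for drought (circles) and well-watered (squares) leaves, with horizontal bars at the group means. Glyma01g33070 spreads from 0.998 to 2.45 in drought, whereas the drought leaves of Glyma01g01360 lie between -1.14 and -1.07.

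Of the runs that were neither of 5 genes nor described, the 3 in each direction whose smallest difference was largest follow. On chromosome 20, Glyma20g25450 was at 1.14, 1.24 and 1.13 in drought plants 11, 12 and 13, against -1.39, -1.59 and -1.13 in well-watered plants 1, 3 and 4. Its neighbours Glyma20g25460 and Glyma20g25470 differed by 2.21 ± 0.18 and 2.37 ± 0.22, beside 2.54 ± 0.17 for Glyma20g25450 itself (SE, n = 3 each). The drought leaves of Glyma20g25450 lay closer together than its well-watered leaves. On chromosome 12, Glyma12g05880 had 1.38, 1.44 and 0.95 under drought and -0.95, -1.02 and -1.38 with water, and the differences of Glyma12g05880, Glyma12g05890 and Glyma12g05900 were 2.37 ± 0.20, 2.17 ± 0.26 and 2.13 ± 0.24. On chromosome 17, Glyma17g35810 had 1.07, 1.15 and 0.96 under drought and -0.96, -1.04 and -1.03 with water, and Glyma17g35800, Glyma17g35810 and Glyma17g35820 differed by 2.06 ± 0.17, 2.07 ± 0.16 and 2.15 ± 0.19. These 3 runs were chosen for a large smallest difference under an upper bound of 3, so their differences had to lie close to one another. The absence of overlap is part of the rule.

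Among the lower runs of this kind, Glyma06g43560, Glyma06g43570 and Glyma06g43580 differed by -1.80 ± 0.24, -1.95 ± 0.22 and -2.51 ± 0.18 (SE, n = 3 each). The last of them was at -1.15, -1.13 and -1.51 in drought plants 11, 12 and 13, against 1.13, 1.41 and 1.19 in well-watered plants 1, 3 and 4. Its groups were therefore the farthest apart of the run. On chromosome 19, Glyma19g44200, Glyma19g44210 and Glyma19g44220 differed by -2.06 ± 0.21, -1.79 ± 0.23 and -2.32 ± 0.30. Glyma19g44220 had -0.95, -0.80 and -1.08 under drought and 2.16, 1.16 and 0.80 with water, with well-watered plant 1 the highest leaf. The gene before this run, Glyma19g44190, again differed the other way, by 2.26. On chromosome 2, Glyma02g03620 had -0.96, -0.997 and -1.48 under drought and 1.32, 0.96 and 1.49 with water. The 4 genes Glyma02g03620, Glyma02g03630, Glyma02g03640 and Glyma02g03650 differed by -2.40 ± 0.21, -1.66 ± 0.28, -1.93 ± 0.21 and -1.63 ± 0.17. These 3 runs, and the 3 higher runs on chromosomes 20, 12 and 17, were met whichever leaf was left out, although Glyma02g03630 missed the threshold of the methods' t-test.

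The other 38 higher runs held 117 genes with differences from 1.01 to 2.89 and a median of 1.63, and the median of a run ranged from 1.14 to 2.83. The other 15 lower runs held 46 genes with differences from -2.92 to -1.03 and a median of -1.47, and the median of a run ranged from -2.50 to -1.11. Over all runs, 24 of the 44 higher and 11 of the 21 lower were met whole whichever leaf was left out. A run also stopped being met where a gene moved past the upper bound of 3, as Glyma01g33070 did without drought plant 12. The runs not met thus mix larger and smaller differences, and the 2 kinds were not counted apart.

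Of the 88 genes directly beside higher runs, 57 differed by at most 0.5 in either direction, and the median difference of the 88 was 0.17. A further 25 lay from 0.5 to 1 in the direction of the run. Since a gene that met the rule would have lengthened the run, these genes could not lie from 1 to 3 without overlap. Of these 88, 61 had the sign of the run and 27 the opposite sign, and they ranged from -1.13 (Glyma20g05000) to 3.13. Of the 42 genes beside lower runs, 23 differed by at most 0.5, and 13 lay from 0.5 to 1 in size in the direction of the run. In all, 27 had the sign of the run and 15 the opposite sign, with a median of -0.13. The share of all ordered genes within 0.5 was not taken, so these counts are not called high or low. From the second to the fifth place beyond a run, 9.66% of the genes near higher runs (34 of 352) and 2.98% of those near lower runs (5 of 168) met the rule in the direction of the run, beside 4.63% and 4.51% of all ordered genes.

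**Figure D3:**
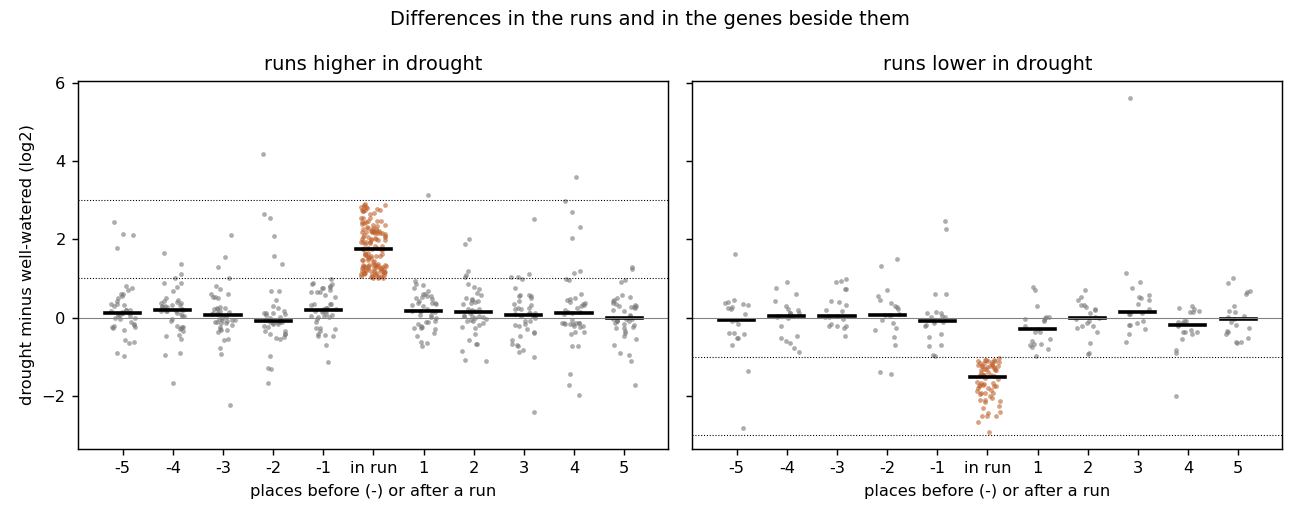
Drought minus well-watered difference (log2) of the genes in runs (coloured) and of the genes up to 5 places before or after them (grey), for runs higher and lower in drought, with bars at the medians and dotted lines at the bounds of the rule. The medians of the genes directly beside the runs together are 0.17 for higher and -0.13 for lower runs.

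A gene next to a changed gene met the rule more often than the ordered genes as a whole. Directly beside a gene that was higher in drought, 11.9% of the genes were higher as well, against 4.63% of all ordered genes. At 2 places the share was 7.40%, at 3 places 6.25%, at 5 places 5.56%, at 10 places 5.20%, at 20 places 4.99% and at 50 places 4.88%. Beside a gene that was lower in drought, 8.67% of the genes were lower, against 4.51% of all, with 6.11% at 2 places, 6.68% at 3, 5.23% at 5, 5.45% at 10, 5.86% at 20 and 4.73% at 50 places, so this share did not decline steadily. Opposite directions were the less frequent pair, since 3.12% of the genes directly beside a higher gene were lower, and this share was 5.24% at 20 places and 4.61% at 50 places. Genes are not independent replicates, and all shares come from the same 6 leaves, so these are descriptions.

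**Figure D4:**
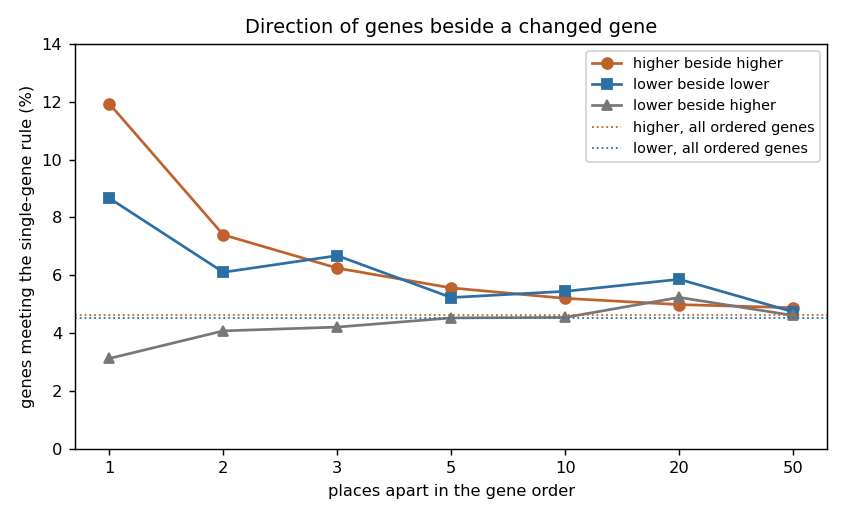
Share of genes (%) that met the rule for a single gene in the named direction, by the number of places from a gene that met it, with dotted lines at the share of all ordered genes. The share of higher genes beside higher genes is 11.9% at 1 place and 4.88% at 50 places.

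Deviations of the leaves from their own group mean are not the difference between the groups, but the rule bears on them too, since groups that may not overlap leave less room for a leaf to deviate. The correlations below are therefore not independent of the choice of members. For each pair of neighbours, the correlation of these deviations was taken over the 6 arrays, which leaves 4 residual degrees of freedom, and all pairs share the same leaves and arrays. The median correlation of the 142 neighbouring pairs in runs was 0.48 (quartiles -0.05 and 0.76), and 103 of them (72.5%) were above 0. The share above 0 was 73.0% in neighbouring pairs that met the rule in the same direction outside runs, and 59.8% in all neighbouring pairs. The median was 0.53 in the 95 pairs of higher runs and 0.44 in the 47 pairs of lower runs. For 478 neighbouring pairs that met the rule in the same direction outside runs the median was 0.37, and for all 65724 neighbouring pairs it was 0.17. For 284 pairs of the same direction 50 places apart it was 0.10. All 64755 pairs 50 places apart had a median of 0.14, with 58.0% above 0, so the values of all neighbouring pairs were close to those of distant pairs. With each leaf left out in turn, the median in runs lay between 0.43 and 0.58. For neighbours that met the rule together outside runs it lay between 0.33 and 0.48, and for all neighbours between 0.08 and 0.22. The median in runs was above that outside runs each time, and closest without drought plant 12, at 0.45 against 0.42.

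Single runs differed widely in this respect. In the chromosome 18 run of Glyma18g48930 the correlations of neighbours were 0.54 to 0.97, with the leaf of well-watered plant 1 low in all 5 genes. In the run of Glyma11g14840 they were -0.95 to 0.16, in that of Glyma03g37060 -0.67 to 0.64, and in that of Glyma01g01350 both were negative, at -0.69 and -0.32. Every pair was above 0.9 in 2 runs, Glyma07g17350 to Glyma07g17370 and Glyma11g10440 to Glyma11g10460, which were picked out after their values were seen. In 5 runs every pair was below 0. Whether probes of adjoining genes share sequence was not tested. No member had the same 6 values as any other probe set, whereas 214 probe sets in 90 groups did. Nearly the same values were nevertheless found in Glyma03g02820 and Glyma03g02840, members of 1 run. They had 0.61, 0.42 and 1.74 against 0.60, 0.42 and 1.71 in drought plants 11, 12 and 13. In well-watered plants 1, 3 and 4 they had -1.33, -0.42 and -0.71 against -1.35, -0.42 and -0.72. Between them lay Glyma03g02830, the member not called by limma, so this run may hold 1 signal counted more than once, which was not tested.

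The numbers of the probe sets ran through each chromosome in 2 ascending series, and what separates the series is not given in the sources used here. Neighbours in runs were of the same series in 55.6% of pairs (79 of 142), against 51.7% of all neighbouring pairs and 59.0% of those that met the rule together outside runs. The median correlation was 0.57 in the 79 pairs of the same series and 0.43 in the 63 pairs of different series, and 19.0% and 3.17% of these pairs were above 0.9. Over all neighbouring pairs, the medians were 0.19 in the same series and 0.15 in different series, with 4.18% and 3.66% above 0.9. Of the 15 pairs above 0.9 in runs and in the same series, 3 came from the chromosome 18 run of Glyma18g48930. In all, 13 of the 44 higher runs and 7 of the 21 lower runs lay wholly in 1 series, among them the chromosome 18 run of Glyma18g48930, the chromosome 3 run of Glyma03g37060 and the run of Glyma01g01350.

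**Figure D5:**
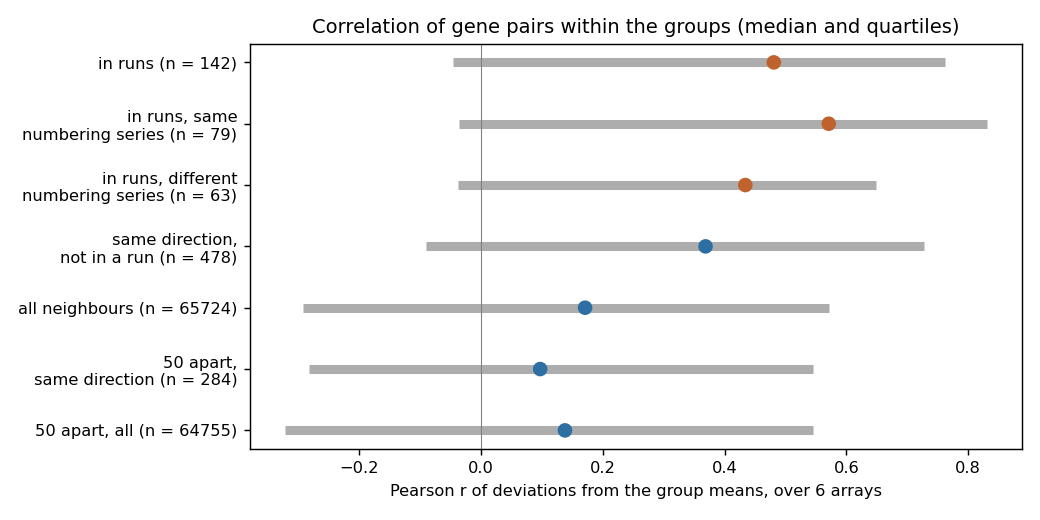
Median (point) and quartiles (bar) of Pearson correlations between gene pairs, from the deviations of the 6 arrays from their group means, for pairs in runs and for comparison pairs. Pairs in runs have a median of 0.48, all neighbours a median of 0.17 and all pairs 50 places apart a median of 0.14.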

How the data were processed

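Leaf RNA was hybridised to Affymetrix soybean gene arrays. The authors deposited log2 values that, per the methods, were summarised by RMA in Affymetrix Expression Console without normalization at that step. By the same account they were then scaled to the upper quartile of each array and centred on the median of each probe set. The deposited tables of fold changes and p-values hold the authors' own comparison. Only the gene identifiers of the probe sets were taken from there, and the fold changes and p-values were not used. Genes were ordered by chromosome and identifier number. A further 428 probe sets on scaffolds were not ordered.

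Runs were found as described above, and the members and lists were chosen with earlier results of these data known. limma 3.58.1 in R 4.3.3 (lmFit, eBayes, Benjamini-Hochberg over all 66184 probe sets) gave standard errors and calls. Other calculations used Python 3.11.15 with numpy 2.4.6 and pandas 2.3.3. Scripts were tested on simulated data. Genes were named where their run had 5 or more genes, held a described gene, or was among the 3 remaining runs per direction with the largest smallest difference. Other runs are given by ranges. Alternatives changed the bounds, run length, overlap criterion, normalization, test and arrays included.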

Additional observations from a re-analysis of the deposited data

How the results depend on the processing

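The number of runs moved with the lower bound of the rule and, more, with the number of genes asked of a run. With a lower bound of 0.8 there were 84 higher runs (272 genes) and 52 lower runs (168 genes), and with 1.2 there were 23 (74 genes) and 13 (41 genes). Without the upper bound of 3 there were 57 higher runs (182 genes) and 25 lower runs (80 genes). With that bound there were 44 (139 genes) and 21 (68 genes). With at least 2 genes in a run there were 312 higher (675 genes) and 231 lower (488 genes), and with at least 4 there were 5 (22 genes) and 4 (17 genes). Leaving out 1 leaf at a time gave 42 to 51 higher runs with 133 to 161 genes and 20 to 29 lower runs with 65 to 92 genes, and limma called 3050 to 3523 probe sets higher and 2861 to 3237 lower. Without the fold criterion limma called 6589 higher and 6583 lower, and the methods' t-test called 2319 higher and 2041 lower. That t-test called 145 of the 207 members, against 206 with limma, and the cause was not tested. No member changed sign under any normalization, test or left-out leaf tried. Groups without overlap cannot change sign when a leaf is left out, and the t-test uses the same difference. The rule thus fixed most of this beforehand, and it is no measure of robustness. With limma's calls in place of the rule, 13.3% of the genes directly beside a higher gene were higher. Of 440 values of the 44 named genes under alternatives, 424 stayed on their side of the threshold and 16 missed it. That 0 reversed follows mostly from the rule in the same way. With the methods' t-test, 10 of these genes missed it: Glyma02g03630, Glyma03g37070, Glyma03g37100, Glyma03g37110, Glyma11g14880, Glyma18g48950, Glyma18g48960, Glyma18g48970, Glyma20g28290 and Glyma20g28310. The other 6 values came from leaving out a leaf, in Glyma03g37100, Glyma11g14880 and Glyma20g28310. A filter on dim probes was not run, because absolute signal is not kept in the values used here. No paired analysis was possible because no number is common to the drought plants (11, 12 and 13) and the well-watered plants (1, 3 and 4).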

Other observations

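Stretches of 3 or more consecutive genes in which every gene met the rule singly, but in both directions, numbered 45 and held 145 genes, 73 higher and 72 lower in drought. They were looked at after the runs had been seen and are a description. The 3 stretches of 5 genes each held a whole run already counted above, so their members are counted again here. These runs were Glyma19g44200 to Glyma19g44220, Glyma20g05020 to Glyma20g05050 and Glyma20g28290 to Glyma20g28320. In Glyma01g26980 to Glyma01g27010, Glyma01g26990, similar to an Arabidopsis carbohydrate kinase of the pfkB family, was lower in drought by a difference of -1.13, with -0.19, -0.83 and -0.65 in drought plants 11, 12 and 13 and 0.19, 0.99 and 0.55 in well-watered plants 1, 3 and 4. The genes around it, Glyma01g26980, Glyma01g27000 and Glyma01g27010, were higher by 1.14, 2.09 and 1.57. Of the 428 probe sets on scaffolds, 15 (3.50%) met the rule for a single gene in the higher direction and 16 (3.74%) in the lower direction.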
